A study of Mus musculus with 8 samples.

Results

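The genes described here form the SGK1, epithelial sodium channel and corticosteroid pathway in IMCD cells, a mouse line from the inner medullary collecting duct. They were taken by symbol from a table of raw counts for 15288 genes, and all 10 named genes were present: Sgk1, Sgk3, Nedd4l, Nr3c1, Tsc22d3, Fkbp5, Scnn1a, Scnn1b, Scnn1g and Hsd11b2. An expression filter kept 9 of the 10, and Scnn1b was the gene it removed. After 12 h of treatment, 3 of the 9 tested genes had changed (33.3%), beside 34.1% of all 14024 tested genes, so the share is near that of genes at large. Sgk1 rose 1.24-fold, Scnn1g fell to 0.558 of its control level, and Fkbp5 fell to 0.773 of its control level, a call that several single libraries decide. Levels of the receptor gene Nr3c1 and of the hormone target gene Tsc22d3 lay close together in the 8 libraries.

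Cells had been grown to confluence in high-glucose DMEM containing serum and antibiotics. They were then kept for 12 h in DMEM without serum, either with no added NaCl (control, 4 libraries) or with 100 mmol NaCl (4 libraries). The labels write the amount without a volume. Serum withdrawal was shared by both groups, and no added steroid hormone is named. All libraries came from the same line, and nothing in the labels says that they came from separate cultures, so p-values measure the spread between these libraries, which may be technical. Libraries 1 to 4 are the control replicates and libraries 5 to 8 the NaCl replicates.

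Aldosterone and glucocorticoids act on the collecting duct through the mineralocorticoid and the glucocorticoid receptor, which are nuclear receptors held by HSP90 and its cochaperones until hormone binds. A classical early target is Sgk1, whose kinase product phosphorylates the ubiquitin ligase NEDD4-2, the product of Nedd4l. Phosphorylated NEDD4-2 removes less of the epithelial sodium channel ENaC from the apical membrane, so more sodium is reabsorbed. Sgk1 was also found to be induced by hypertonicity and cell shrinkage, and for this reason it stands where steroid and osmotic signalling meet.

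Sequencing depth lay between 35286796 and 47565623 counts per library. Of 14024 tested genes, 4789 (34.1%) were called, meaning that the adjusted p from edgeR's quasi-likelihood test was under 0.05. Called higher were 16.9% and called lower 17.2% of tested genes. Over all tested genes the median log2 fold change was 0.0029. Levels are given in CPM, counts scaled per library total to a common depth, and cannot tell fewer cells of a type from less RNA per cell. Of 19 collecting duct markers, 18 were in the table and 10 reached a mean of 1 CPM. Scnn1g, Scnn1b and Hsd11b2 are among these markers and also belong to the set described here. Krt18 (217 ± 25.9 CPM in control, SD, n = 4), Hoxb7 and Cldn4 were among them, whereas the principal cell water channel gene Aqp2 had a control mean of 0.0241 CPM. With NaCl the Aqp2 mean was 0.305 CPM, and it was not tested. Called higher were Cdh1 (E-cadherin, 0.195 to 0.535 CPM), Avpr2, Slc14a2 and Cldn4 (44.01 to 77.3 CPM), and called lower were Gata3, Hoxb7 (71.4 to 60.2 CPM) and Scnn1g. All 6 fibroblast markers reached 1 CPM, with a summed level from 3128 to 3635 CPM in control and from 2820 to 3254 CPM in NaCl libraries. Most of it was Col1a1, which fell from 2492 to 2148 CPM, and Pdgfra fell too, whereas Pdgfrb rose from 37.5 to 61.1 CPM and Col3a1 (381 and 459 CPM) was not called. Of 6 intercalated cell markers, Atp6v0d2 alone was in the table, and it fell by 2.48 on the log2 scale. The 4 loop of Henle and distal tubule markers in the table summed to 3.24 to 4.69 CPM in control and 4.88 to 5.34 CPM in NaCl libraries, with none called. The 3 proximal tubule markers summed to 162 to 205 CPM and 155 to 177 CPM, nearly all Lrp2, with none called, and the 2 endothelial markers stayed under 1 CPM. The 4 leukocyte markers in the table summed to between 12.97 and 18.2 CPM in control and between 21.4 and 26.3 CPM in NaCl libraries. Among them Ptprc rose from 4.05 to 13.5 CPM. Cd68 (2.41 and 1.69 CPM) and Csf1r (9.22 and 8.86 CPM) were lower in mean with NaCl and not called, and Cd3e and Itgam were not among the genes of the table. The part of these markers in the results below was not tested.

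**Figure D1:**
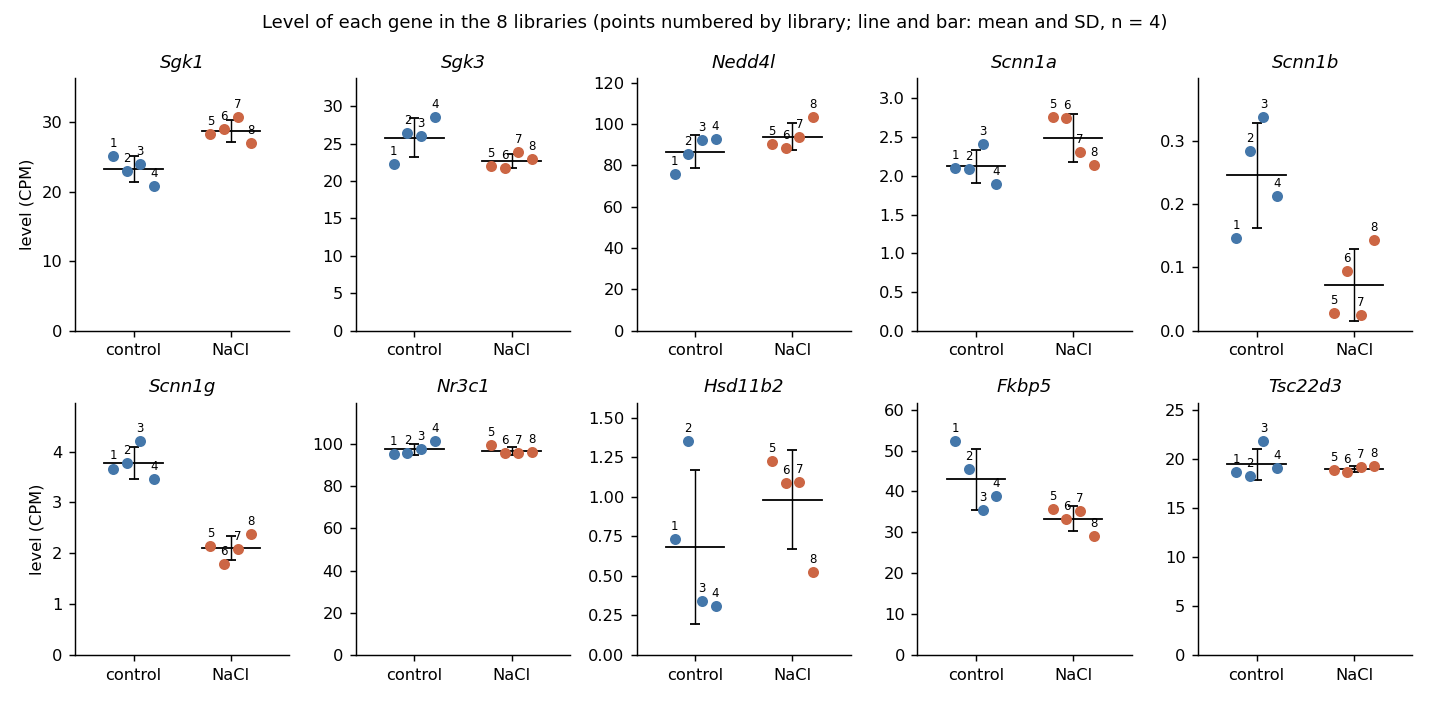
Level (CPM, vertical axes starting at 0) of each of the 10 genes in the 4 control and 4 NaCl libraries. Points are libraries with their numbers, and the line and bar give the mean and SD. The groups separate for Sgk1, Scnn1g and Scnn1b, and overlap for the other 7 genes.

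Sgk1 (ENSMUSG00000019970; GRCm38 chromosome 10, 21882184 to 21999903, plus strand) encodes the serum- and glucocorticoid-regulated kinase. Its level was 25.1, 22.9, 24.0 and 20.8 CPM in control replicates 1 to 4 and 28.3, 29.04, 30.7 and 26.9 CPM in NaCl replicates 5 to 8. Every NaCl library lay above every control library, and groups that do not overlap, in either direction, were found for 33.4% of tested genes. The mean rose from 23.2 ± 1.84 to 28.7 ± 1.59 CPM (SD, n = 4 each). The log2 fold change was 0.31 (SE 0.067, 95% interval 0.17 to 0.45, edgeR adjusted p = 0.00183). Of all tested genes, 23.5% had a larger absolute log2 fold change. Sgk1 stayed called in each of 17 alternative fits, with adjusted p-values from 5.58e-05 to 0.0106. One alternative fitted a linear drift over libraries 1 to 8, called the drift term from here on, and there the log2 fold change was 0.48.

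The annotation gives Sgk1 several start sites, and the counts do not tell transcripts from different starts apart. RefSeq's promoter windows on GRCm38.p6 were found for 5 of the 10 genes, Sgk1 having 6 of them. The 250 bases before each start were searched on both strands for 4 hexamers and a palindrome. AGAACA is the arm of the glucocorticoid response element. The full palindrome is AGAACA, 3 bases of any kind and TGTTCT, so it holds AGAACA on each strand. TGGAAA is the core of the tonicity element bound by NFAT5, GGGCGG is the GC box, and TATAAA the TATA box. Among 32851 windows of this length, AGAACA was found in 16.1%, TGGAAA in 18.6%, GGGCGG in 32.7% and TATAAA in 12.4%. The palindrome was found in 3 windows (0.00913%), and 1 of these belongs to Sgk1. The other two belong to Acnat2 and Gm35041, which are not among the genes of the count table. Windows of the 3 called genes are shown because their levels moved, with matches to any of these letters in capitals. Of the 6 Sgk1 windows 2 are shown, the one with the palindrome and that of the last start, a choice made after the matches were seen. The windows are chr10:21993640-21993889 and chr10:21994416-21994665 (Sgk1, plus strand), chr17:28486150-28486399 (Fkbp5, minus strand) and chr7:121734229-121734478 (Scnn1g, plus strand), and none overlaps an annotated exon.
Sgk1 window with the palindrome: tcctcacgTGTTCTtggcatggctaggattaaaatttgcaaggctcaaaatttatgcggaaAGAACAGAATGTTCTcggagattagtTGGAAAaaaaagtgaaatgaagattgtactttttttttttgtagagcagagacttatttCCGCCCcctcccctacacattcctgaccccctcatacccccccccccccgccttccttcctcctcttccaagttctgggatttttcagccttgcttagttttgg
Sgk1 window of the last start: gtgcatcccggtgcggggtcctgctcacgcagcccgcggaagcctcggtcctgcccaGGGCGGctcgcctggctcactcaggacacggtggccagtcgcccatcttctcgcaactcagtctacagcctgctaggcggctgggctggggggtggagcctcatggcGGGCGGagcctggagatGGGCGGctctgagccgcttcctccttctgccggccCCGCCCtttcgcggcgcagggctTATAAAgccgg
Fkbp5 window: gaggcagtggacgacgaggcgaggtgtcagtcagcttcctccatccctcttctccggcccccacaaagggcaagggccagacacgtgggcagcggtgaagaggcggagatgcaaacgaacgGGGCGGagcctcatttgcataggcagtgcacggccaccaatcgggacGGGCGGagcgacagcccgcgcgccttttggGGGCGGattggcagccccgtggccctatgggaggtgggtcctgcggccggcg
Scnn1g window: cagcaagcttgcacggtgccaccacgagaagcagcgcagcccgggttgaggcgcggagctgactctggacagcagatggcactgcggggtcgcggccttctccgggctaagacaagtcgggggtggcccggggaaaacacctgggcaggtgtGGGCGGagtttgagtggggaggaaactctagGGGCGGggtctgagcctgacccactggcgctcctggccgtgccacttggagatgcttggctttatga
In the Sgk1 window that holds it, the palindrome AGAACAGAATGTTCT spans positions 21993701 to 21993715 and begins 189 bases before the start. The same window has a TGGAAA match that begins 163 bases before the start and a GC box. The Sgk1 window of the last start had 4 GC boxes, a TATA box and no AGAACA or TGGAAA match. The Fkbp5 window had 3 GC boxes and the Scnn1g window 2, and neither had a match to the other letters. Among the Sgk1 windows not shown, 1 had AGAACA and TGGAAA, 1 had AGAACA and TATAAA, and 2 had no match. Tsc22d3, which was not called, had AGAACA in 1 of its 3 windows. A match is a description of these letters and says nothing on binding, and no match says only that the letters are not in the window.

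Sgk3 (ENSMUSG00000025915; chromosome 1, 9798107 to 9900845, plus strand) encodes a paralog that carries a PX domain and is found at endosomes. Its level was 22.3, 26.4, 26.02 and 28.6 CPM in control and 22.04, 21.7, 23.9 and 22.9 CPM in NaCl libraries. Control replicate 1 lay within the range of the NaCl libraries, and the other controls lay above it. The means were 25.8 ± 2.61 and 22.6 ± 0.970 CPM (SD, n = 4 each). On the log2 scale the fold change was -0.19 (SE 0.072, 95% interval -0.34 to -0.035, edgeR adjusted p = 0.0545), so Sgk3 was not called. Without control replicate 1 the log2 fold change was -0.26 and the adjusted p-value 0.00579. Sgk3 was also called by DESeq2 (adjusted p = 0.0449), after centring the library number within groups (0.0120) and under the drift term (log2 fold change -0.46, adjusted p = 0.00510). The remaining paralog Sgk2 had between 4 and 45 counts in control and between 29 and 43 in NaCl libraries. Its log2 fold change of 0.79 had a 95% interval from -0.11 to 1.70 and was not called (edgeR adjusted p = 0.169). For Sgk2 it was 1.22 without control replicate 1 (adjusted p = 0.0470), 0.45 without control replicate 3 (0.328) and 1.79 under the drift term (0.0944).

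The balance among the SGK genes was compared within each library. Sgk1 made up 51.95, 46.0, 47.9 and 41.6% of Sgk1, Sgk2 and Sgk3 counts in control and 54.9, 56.1, 55.5 and 53.1% in NaCl libraries. The groups did not overlap, and the means were 46.9 ± 4.28 and 54.9 ± 1.32% (SD, n = 4 each). The exact two-sided permutation p was 0.0286, the smallest this design allows, and 0.0714 after adjustment over 5 such ratios, so the difference did not pass the correction. Sgk1 counts per 100 Nedd4l counts were 27.1 ± 4.48 in control and 30.7 ± 3.23 in NaCl libraries, and these overlapped (exact permutation p = 0.371, adjusted 0.371). The difference of 3.66 was 5.69 without control replicate 1 and 2.10 without control replicate 4.

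**Figure D2:**
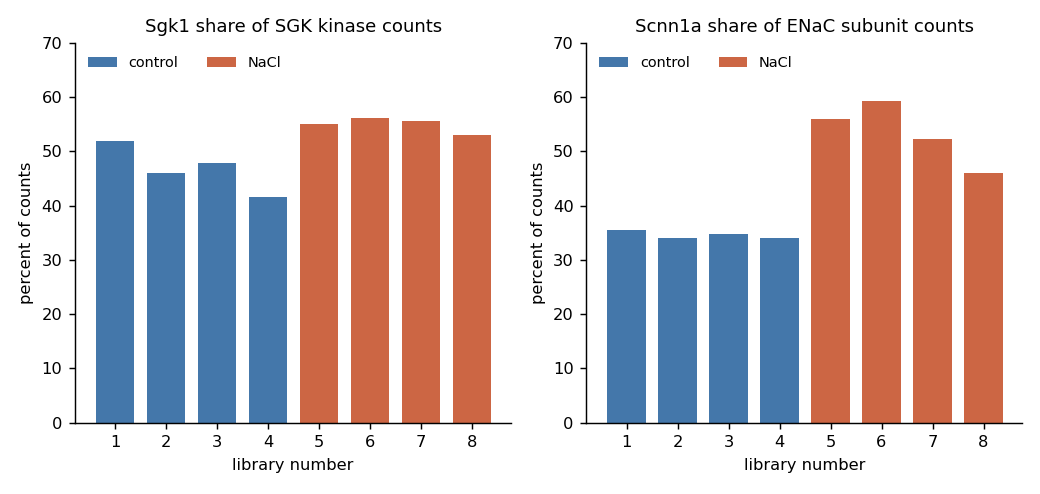
Sgk1 as a percent of Sgk1, Sgk2 and Sgk3 counts (left) and Scnn1a as a percent of Scnn1a, Scnn1b and Scnn1g counts (right), with bars from 0 for libraries 1 to 8. Sgk1 takes 41.6 to 51.95% in control and 53.1 to 56.1% in NaCl libraries, and Scnn1a 33.98 to 35.5% and 45.9 to 59.2%. Scnn1g, part of the total on the right, was called lower, and Scnn1a was not called.

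Kinases that activate SGK were examined as a list of 23 genes, which includes Sgk1 and Sgk3. All 23 were tested, 6 were called higher and 6 lower (52.2% called, beside 34.1% of all tested genes), and the list median was 0.07 (0.043 without control replicate 4). mTORC2, the complex that phosphorylates the hydrophobic motif of SGK1, had called genes in both directions. Mlst8, a subunit shared by the mTOR complexes, rose from 27.2 ± 1.31 to 32.0 ± 1.68 CPM (log2 fold change 0.23, edgeR adjusted p = 0.00461). Deptor, an inhibitor of mTOR, rose with a log2 fold change of 0.34 (adjusted p = 0.0170). The mTORC2-associated gene Prr5l fell by 0.40 on the log2 scale (adjusted p = 0.0384). Of the other mTORC2 genes, Rictor (-0.13, adjusted p = 0.0135) and Prr5 (-0.31, adjusted p = 0.0315) were called lower. Mapkap1 was called higher (0.18, adjusted p = 0.00440), and Mtor was not called (0.076, adjusted p = 0.109). Rictor, Prr5, Mapkap1 and Mtor were not followed one by one through the alternatives. Pik3r1, a regulatory subunit of PI3-kinase, fell by 0.35 (adjusted p = 0.00266), and Map2k6, a kinase upstream of p38, fell by 0.39 (adjusted p = 0.00286). The calls of Deptor and Prr5l depended on single libraries. Deptor had adjusted p-values of 0.0552, 0.0567 and 0.0509 without control replicate 1, NaCl replicate 7 or NaCl replicate 8. Prr5l had 0.140, 0.0677, 0.1001, 0.0889 and 0.0852 without control replicates 1 or 4 or NaCl replicates 5, 7 or 8, and 0.0530 with limma-voom. Under the drift term neither was called (0.993 and 0.736). Mlst8, Map2k6 and Pik3r1 stayed called under that term with larger changes, of 0.42, -0.76 and -0.73.

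Nedd4l (ENSMUSG00000024589; chromosome 18, 64887705 to 65217828, plus strand) encodes NEDD4-2, the ligase through which SGK1 acts on ENaC. Its level was 75.7, 85.7, 92.4 and 92.8 CPM in control and 90.2, 88.6, 93.6 and 103.5 CPM in NaCl libraries, and the groups overlapped. The means were 86.6 ± 7.99 and 93.98 ± 6.69 CPM (SD, n = 4 each). This gave a log2 fold change of 0.12 (SE 0.066, 95% interval -0.026 to 0.26) that was not called (edgeR adjusted p = 0.197). Nedd4l moved with the library number. With the number centred within groups its log2 fold change was 0.12 and called (adjusted p = 0.00829), and under the drift term it was -0.21 and called in the other direction (0.0336). It was 0.056 without control replicate 1 and 0.066 without NaCl replicate 8, neither called. No direction is therefore given for Nedd4l.

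The list of NEDD4 family ligases, adaptors, deubiquitinases and 14-3-3 proteins held 20 genes, all tested, of which 2 were called higher and 8 lower (50.0% called, beside 34.1% of all tested genes; median -0.057). Without NaCl replicate 5 or NaCl replicate 6, 5 were called lower. Nedd4, the closest paralog of Nedd4l, rose from 1206 ± 29.6 to 1366 ± 22.2 CPM (SD, n = 4 each; log2 fold change 0.18, edgeR adjusted p = 2.76e-04). Usp10, a deubiquitinase, rose with a log2 fold change of 0.12 (adjusted p = 0.00846). Smurf1 and Wwp1, ligases of the same family, fell by 0.23 (adjusted p = 1.16e-04) and 0.20 (adjusted p = 0.00615) on the log2 scale. The 14-3-3 proteins bind phosphorylated NEDD4-2. Sfn (14-3-3 sigma) fell by 0.54 on the log2 scale (adjusted p = 0.00855), from 3.47 ± 0.286 to 2.39 ± 0.190 CPM. The far more abundant 14-3-3 genes changed less. Ywhae (-0.097, 788 CPM in control), Ywhag (-0.16), Ywhaq (-0.091) and Ywhaz (-0.096, 567 CPM in control) were called lower. Ywhab (-0.057) and Ywhah (0.074) were not called. These genes other than Sfn were not followed one by one through the alternatives. Once the drift term was fitted, 1 gene of the list was called higher and 2 lower, and Nedd4 (adjusted p = 0.116), Smurf1 (0.0973), Wwp1 (0.522) and Sfn (0.605) were not among them.

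ENaC is built from an alpha, a beta and a gamma subunit, encoded by Scnn1a, Scnn1b and Scnn1g, and all 3 were low in these cells. Scnn1g (ENSMUSG00000000216; chromosome 7, 121734479 to 121768475, plus strand) had 3.67, 3.77, 4.20 and 3.45 CPM in control and 2.15, 1.80, 2.08 and 2.38 CPM in NaCl libraries. Every control library lay above every NaCl library. The mean fell from 3.77 ± 0.316 to 2.10 ± 0.241 CPM (SD, n = 4 each). The log2 fold change was -0.84 (SE 0.15, 95% interval -1.16 to -0.52; edgeR adjusted p = 3.74e-04). The counts behind it were 146 to 175 in control and 76 to 100 in NaCl libraries. Of tested genes, 5.31% had a larger absolute log2 fold change, and Scnn1g stayed called in each of 17 alternative fits, with log2 fold changes from -0.95 to -0.77.

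Scnn1a (ENSMUSG00000030340; chromosome 6, 125320659 to 125344943, plus strand) encodes the alpha subunit, which steroid hormones induce in the kidney. It had 2.10, 2.09, 2.42 and 1.89 CPM in control and 2.76, 2.74, 2.30 and 2.14 CPM in NaCl libraries, and the groups overlapped. On the log2 scale the fold change was 0.23 (SE 0.17, 95% interval -0.13 to 0.59) and was not called (edgeR adjusted p = 0.328). For Scnn1a the drift term gave 0.54, also not called (0.320). Scnn1b (ENSMUSG00000030873; chromosome 7, 121865038 to 121918514, plus strand), the neighbour of Scnn1g, had 7, 12, 14 and 9 counts in the control group and 1, 4, 1 and 6 in the NaCl group. The lowest control (0.147 CPM) lay just above the highest NaCl library (0.143 CPM). Scnn1b failed the expression filter, and without a filter its log2 fold change was -1.69 (SE 0.67, edgeR adjusted p = 0.0644). Scnn1a made up 35.5, 33.98, 34.7 and 34.04% of ENaC subunit counts in control and 55.9, 59.2, 52.2 and 45.9% in NaCl libraries. The means were 34.6 ± 0.694 and 53.3 ± 5.69% (SD, n = 4 each; exact two-sided permutation p = 0.0286, adjusted over 5 ratios 0.0714). Scnn1g is part of this total and was called lower, while Scnn1a was not called. The share is therefore no separate result on Scnn1a.

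Genes with a like profile were sought for each called gene of the set with an absolute log2 fold change of at least 0.5, and Scnn1g alone reached that size. The profile was log2 CPM less the control mean over the 8 libraries, compared with 10111 genes of a mean log2 CPM of at least 3. The nearest were Mfsd4b1 (root mean square distance 0.101, log2 fold change -0.78), Stbd1 (0.103, -0.94) and Ctsc (0.104, -0.76). Ctsc encodes the lysosomal protease cathepsin C and Stbd1 a glycogen-binding protein.

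ENaC subunits are cleaved by furin and by membrane serine proteases, and a list of 12 genes held the subunits, these proteases and their inhibitors. Of 10 tested, 3 were called higher and 3 lower, or 60% beside 34.1% of all tested genes (median -0.041). Leaving out single libraries moved this median between -0.14 (without NaCl replicate 8) and -0.0015 (without NaCl replicate 5). Furin, the protease that cleaves the alpha and gamma subunits, rose from 141 ± 3.32 to 176 ± 3.67 CPM (SD, n = 4 each; log2 fold change 0.32, edgeR adjusted p = 1.40e-06). St14, which encodes matriptase, rose from 30.6 ± 3.60 to 38.3 ± 2.42 CPM (0.32, adjusted p = 0.00327). Spint2, an inhibitor of matriptase and prostasin, rose from 446 ± 43.6 to 628 ± 33.5 CPM (0.49, adjusted p = 1.41e-04). Plau, which encodes urokinase, fell from 303 ± 11.7 to 190.3 ± 15.0 CPM (-0.67, adjusted p = 8.15e-08). Serpine2, which encodes the serpin protease nexin 1, fell by 0.34 on the log2 scale (adjusted p = 0.0172). Without control replicate 1 or 2 the Serpine2 call was lost (adjusted p = 0.0504 and 0.0576), and under the drift term Serpine2 (0.623) and St14 (0.942) were not called. Spint2 stayed called under that term at a smaller size (0.18, adjusted p = 0.0216). Prss8, which encodes prostasin, had 2.59 and 2.30 CPM and was not called.

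**Figure D3:**
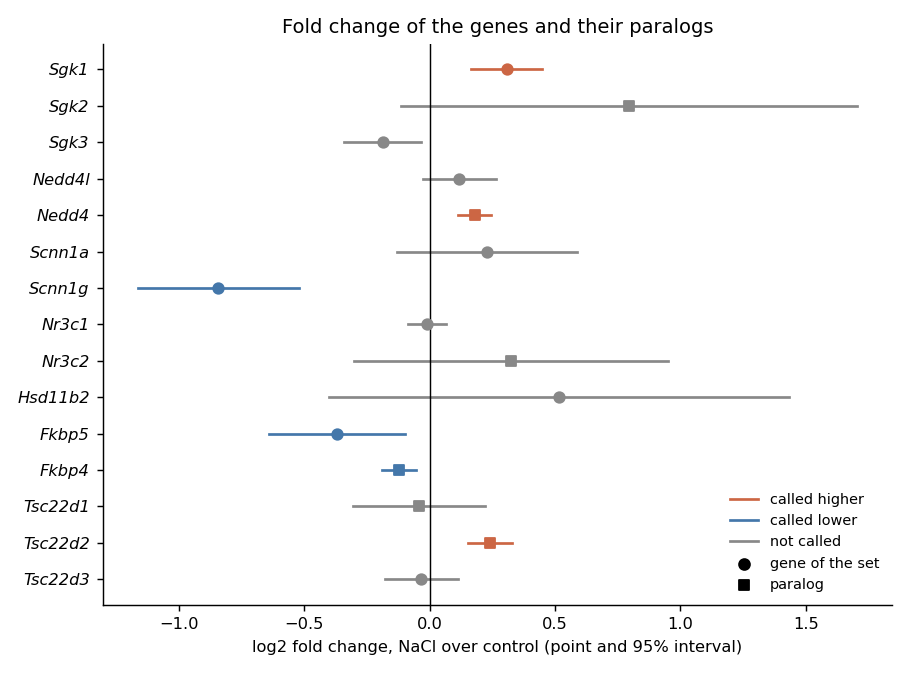
Log2 fold change (NaCl over control) with 95% interval for the 9 tested genes (circles) and 6 paralogs (squares), n = 4 libraries per group. Sgk1 lies at 0.31, Scnn1g at -0.84 and Fkbp5 at -0.37, and the wide intervals are those of Sgk2, Nr3c2 and Hsd11b2.

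Nr3c1 (ENSMUSG00000024431; chromosome 18, 39410545 to 39519421, minus strand) encodes the glucocorticoid receptor and had the highest level of the 10 genes per length. It had 95.5, 95.95, 97.7 and 101.4 CPM in control and 99.6, 95.8, 95.7 and 96.1 CPM in NaCl libraries, so the groups overlapped. The means were 97.6 ± 2.67 and 96.8 ± 1.88 CPM (SD, n = 4 each). The log2 fold change of -0.012 had a 95% interval from -0.087 to 0.063, the narrowest of the set, and was not called (edgeR adjusted p = 0.827). Nr3c2, which encodes the mineralocorticoid receptor, had 26 to 49 counts in control and 34 to 49 in NaCl libraries, or 0.805 ± 0.250 and 1.01 ± 0.247 CPM. Its log2 fold change of 0.32 had an interval from -0.30 to 0.95 (adjusted p = 0.436), and it was 0.55 without control replicate 4 and 0.15 without NaCl replicate 5. Nr3c2 took 0.814 ± 0.228% of the counts of the 2 receptors in control and 1.03 ± 0.227% in NaCl libraries (exact permutation p = 0.286, adjusted 0.357), a difference of 0.216 that was 0.109 without NaCl replicate 5.

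Hsd11b2 (ENSMUSG00000031891; chromosome 8, 105518755 to 105523988, plus strand) encodes the enzyme that inactivates cortisol and corticosterone and so keeps them from the mineralocorticoid receptor. It had 35, 57, 14 and 13 counts in the control group and 44, 46, 45 and 22 in the NaCl group. Both groups were widely spread and overlapped, and the log2 fold change of 0.52 (SE 0.43, 95% interval -0.40 to 1.43) was not called (edgeR adjusted p = 0.388). The log2 fold change was 1.07 without control replicate 2, 0.29 without control replicate 3 and 0.27 without control replicate 4, none of them called. For Hsd11b2 under the drift term it was 2.35 and called (adjusted p = 0.0219).

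The list on corticosteroid metabolism and efflux held 8 genes, of which 7 were tested, 1 was called higher and 4 lower (71.4% called, beside 34.1% of all tested genes; median -0.22). H6pd, which supplies NADPH to the reductase form of this enzyme family in the endoplasmic reticulum, rose with a log2 fold change of 0.10 (edgeR adjusted p = 0.0234). The gene of that reductase, Hsd11b1, was not among the genes of the count table. The drug and steroid efflux pump genes Abcb1a and Abcb1b were both called lower. Abcb1a had 41, 24, 42 and 39 counts in the control group and 2, 5, 3 and 4 in the NaCl group, or -3.24 on the log2 scale (SE 0.42, edgeR adjusted p = 1.71e-05). Abcb1b fell from 15.9 ± 2.61 to 10.2 ± 0.849 CPM (-0.64, adjusted p = 2.35e-04). The steroid reductase gene Srd5a1 fell by 0.36 on the log2 scale (adjusted p = 5.84e-04). H6pd lost its call without control replicates 2 or 4 (0.0808 and 0.0554) or NaCl replicates 6, 7 or 8 (0.0566, 0.0579 and 0.0800). Under the drift term the list had 3 called genes, and H6pd (0.661) and Abcb1b (0.719) were not among them. Srd5a1 stayed called there at -0.65.

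Fkbp5 (ENSMUSG00000024222; chromosome 17, 28399094 to 28517527, minus strand) encodes FKBP51, an HSP90 cochaperone that lowers the hormone affinity of the receptor and is itself induced by glucocorticoids. Its level was 52.3, 45.5, 35.4 and 38.9 CPM in control and 35.7, 33.2, 35.3 and 29.04 CPM in NaCl libraries. The controls spread widely, and control replicate 3 lay below NaCl replicate 5, so the groups overlapped. The mean fell from 42.999 ± 7.48 to 33.3 ± 3.04 CPM (SD, n = 4 each). This gave a log2 fold change of -0.37 (SE 0.12, 95% interval -0.64 to -0.10; edgeR adjusted p = 0.0395). The call was lost without control replicate 2 (0.0957), NaCl replicate 5 (0.0523), NaCl replicate 6 (0.0839), NaCl replicate 7 (0.0520) or NaCl replicate 8 (0.0824), and with library totals in place of scaled totals (0.0505). Once the drift term was fitted, the log2 fold change was 0.14 and not called (0.521). Fkbp5 is therefore the least stable of the 3 calls.

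Fkbp4, which encodes the related cochaperone FKBP52, fell from 342 ± 8.12 to 314 ± 6.44 CPM (SD, n = 4 each; log2 fold change -0.12, edgeR adjusted p = 0.00651) with no overlap. Fkbp5 counts per 100 Fkbp4 counts were 12.6 ± 2.04 in control and 10.6 ± 1.07 in NaCl libraries, and this ratio did not differ beyond the spread (exact permutation p = 0.257, adjusted 0.357). The difference of -1.94 was -1.12 without control replicate 1. The list of receptors, chaperones and coregulators held 23 genes, all tested, with 6 called higher and 7 lower (56.5% called, beside 34.1% of all tested genes; median -0.057). Members called lower included the HSP90 genes Hsp90ab1, which fell from 3579 ± 75.8 to 2871 ± 11.2 CPM (-0.32, adjusted p = 3.93e-07), and Hsp90aa1. The corepressor gene Nrip1 fell by 0.29 on the log2 scale (adjusted p = 3.27e-04). The genes called higher included the acetyltransferase coactivators Ep300 (0.26, adjusted p = 2.85e-05) and Crebbp (0.21, adjusted p = 0.0107). The phosphatase gene Ppp5c, whose product binds HSP90, rose with a log2 fold change of 0.19 (adjusted p = 0.0111). Under the drift term the list median was 0.085. The list then had 6 called genes, and Fkbp4 (0.105), Nrip1 (0.126) and Crebbp (0.0650) were not among them. Ppp5c stayed called there at 0.41.

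Tsc22d3 (ENSMUSG00000031431; X chromosome, 140539528 to 140600659, minus strand) encodes GILZ, a leucine zipper protein that glucocorticoids and aldosterone induce. Its level was 18.6, 18.2, 21.8 and 19.1 CPM in control and 18.8, 18.6, 19.1 and 19.3 CPM in NaCl libraries. The NaCl libraries all lay within the range of the controls. The log2 fold change was -0.034 (SE 0.069, 95% interval -0.18 to 0.11) and was not called (edgeR adjusted p = 0.745). In the TSC22 list of 6 genes, 5 were tested, 1 was called higher and 2 lower, or 60% beside 34.1% of all tested genes (median -0.043). Leaving out single libraries moved this median between -0.11 (without NaCl replicate 8) and -0.011 (without control replicate 3). The higher gene was Tsc22d2, a relative known to respond to osmotic stress, which rose from 60.8 ± 1.64 to 71.8 ± 2.49 CPM (SD, n = 4 each; log2 fold change 0.24, adjusted p = 2.34e-04). The lower genes were Nrbp2 (-0.33, adjusted p = 2.10e-04) and Nrbp1 (-0.21, adjusted p = 7.91e-04), whose products are pseudokinases that bind TSC22 proteins. Tsc22d1 had 680.3 ± 74.6 and 660.4 ± 80.6 CPM and was not called (adjusted p = 0.807). Once the drift term was fitted, Tsc22d1 was called lower (-0.56, adjusted p = 2.24e-10), and Nrbp2 (0.0591) and Nrbp1 (0.219) were not called.

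Genes known to be induced by glucocorticoids were taken as a list of 30, which includes Sgk1, Fkbp5 and Tsc22d3. Of 28 tested, 7 were called higher and 13 lower (71.4% called, beside 34.1% of all tested genes; median -0.16). The highest fold changes were those of the phosphatase gene Dusp1, from 37.9 ± 2.29 to 96.5 ± 3.10 CPM (log2 fold change 1.35, edgeR adjusted p = 2.28e-12), of Rgs2, a regulator of G protein signalling (1.11, adjusted p = 0.0206), and of the cell cycle inhibitor gene Cdkn1c (0.98, adjusted p = 0.0171). The lowest were those of the metallothionein gene Mt2, from 82.3 ± 5.96 to 41.2 ± 10.9 CPM (-0.995, adjusted p = 0.00813), the transglutaminase gene Tgm2, from 134 ± 11.6 to 73.3 ± 2.81 CPM (-0.87, adjusted p = 8.51e-09), and the glutamine synthetase gene Glul, from 67.7 ± 2.06 to 42.1 ± 0.946 CPM (-0.69, adjusted p = 2.76e-09). Many of these genes have other inducers. Per1, a clock gene with a glucocorticoid response element, was not called (adjusted p = 0.191). Rgs2 and Cdkn1c had at most 66 counts in any library. Rgs2 lost its call without control replicates 1 or 2 (0.0525 and 0.0659) or NaCl replicates 7 or 8 (0.0749 and 0.0766), and Cdkn1c without control replicate 4 (0.0512) or NaCl replicate 8 (0.0517). Under the drift term, 5 genes were called higher and 12 lower, Rgs2 had -0.12 (0.931), and Cdkn1c was not called (0.203), while Mt2 stayed called at -1.68.

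Genes known to be induced by aldosterone in the collecting duct formed a list of 16, of which 5 belong to the set described here. Of 13 tested, 4 were called higher and 1 lower (38.5% called, beside 34.1% of all tested genes; median 0.23). The genes called higher included Sgk1, the sodium pump subunit gene Atp1b1 (log2 fold change 0.58, edgeR adjusted p = 1.62e-08) and Cnksr3. Cnksr3, a scaffold protein for SGK1 and ENaC regulation, rose from 49.99 ± 3.68 to 64.3 ± 3.47 CPM (SD, n = 4 each; 0.36, adjusted p = 8.18e-05). Fkbp5 was the gene called lower, and the list had no lower call with library totals or without control replicate 2 or NaCl replicates 5, 6, 7 or 8. Edn1 and Usp2 were not called (0.914 and 0.310). Under the drift term the list median was 0.099, and Cnksr3 was not called (0.271).

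Substrates and regulators of SGK formed a list of 14, all tested, with 3 called higher and 2 lower (35.7% called, beside 34.1% of all tested genes; median 0.021, which was 0.037 without control replicate 1 and 0.012 without NaCl replicate 5). The genes called higher included Cnksr3 and the ubiquitin ligase gene Stub1 (log2 fold change 0.17, edgeR adjusted p = 7.94e-04). Hspa5, an endoplasmic reticulum chaperone, fell from 1093 ± 9.64 to 863 ± 21.02 CPM (-0.34, adjusted p = 2.57e-07), and Wnk4, a kinase that regulates sodium transport, fell by 0.14 on the log2 scale (adjusted p = 0.0181). Ndrg2, a substrate of SGK1, had 29.6 and 39.4 CPM and missed the threshold (0.0558). Ndrg1, a further substrate, was lower in mean with NaCl, at 421 ± 90.7 and 322 ± 114 CPM. Its log2 fold change of -0.39 was not called (adjusted p = 0.399). The Wnk4 call was lost without control replicate 4 (0.0557) or NaCl replicate 7 (0.0556), and under the drift term Wnk4 was called at -0.23. The list then had 1 gene called higher and 5 lower.

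**Figure D4:**
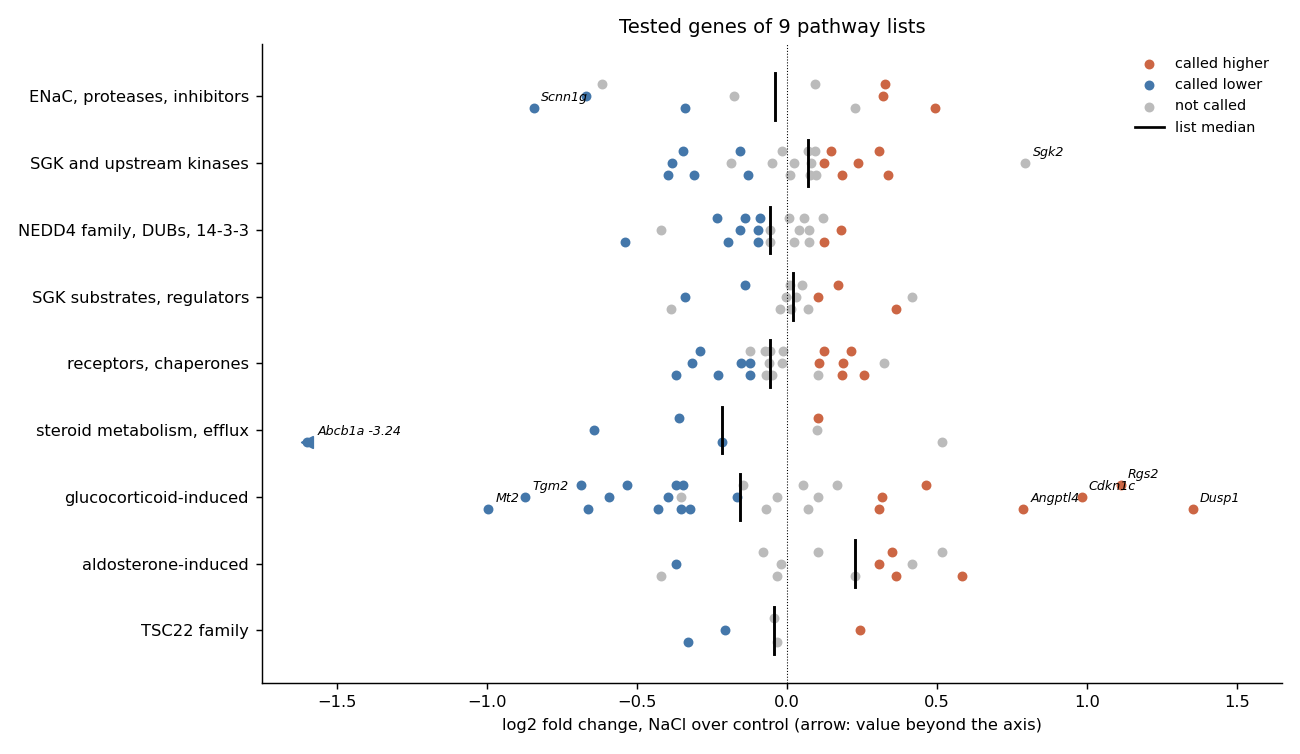
Log2 fold change (NaCl over control) of each tested gene in 9 pathway lists, coloured by call, with the list median as a black line. Genes called in both directions stand in each list, and the medians lie between -0.22 and 0.23.

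Several genes named above share exon sequence with other annotated genes, and since the strandedness of the counts is not given in the sources used here, their counts are uncertain to that extent. The share of exonic bases that overlap another gene was 73.5% for Mt2, 42.3% for Stub1, 30.7% for Cdkn1c, 22.5% for Mlst8, 21.8% for Tgm2, 18.7% for Atp1b1, 16.4% for Srd5a1, 10.1% for Abcb1a and 7.38% for Wnk4. Abcb1a and Abcb1b also share sequence, so reads between these paralogs could be split. Of the 10 genes of the set, Nedd4l alone had such an overlap, over 1.57% of its exonic bases. None of the 10 shared at least 75 bases at 98% identity with a transcript of another gene.

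Levels of the 10 genes were also compared per kilobase of merged annotated exons. In control libraries Nr3c1 was highest at 12.7 ± 0.347 CPM per kb (SD, n = 4). Nedd4l (4.91 ± 0.453), Sgk1 (4.73 ± 0.375), Fkbp5 (4.54 ± 0.790) and Tsc22d3 (4.48 ± 0.372) followed and did not differ from each other beyond their spread. Sgk3 (1.80 ± 0.182) and Scnn1g (1.26 ± 0.106) came next. Scnn1a (0.514 ± 0.0526) and Hsd11b2 (0.371 ± 0.264) lay within their spread of each other, and Scnn1b was lowest (0.0933 ± 0.0317). With NaCl, Sgk1 was at 5.86 ± 0.325 and Scnn1g at 0.703 ± 0.0805 CPM per kb, beside 0.602 ± 0.0756 for Scnn1a. The order in the middle depends on the length used. Per kilobase of the longest transcript, the control levels were 11.1 for Fkbp5 and Nedd4l, 7.50 for Sgk1, 6.83 for Sgk3 and 6.76 for Tsc22d3.

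**Figure D5:**
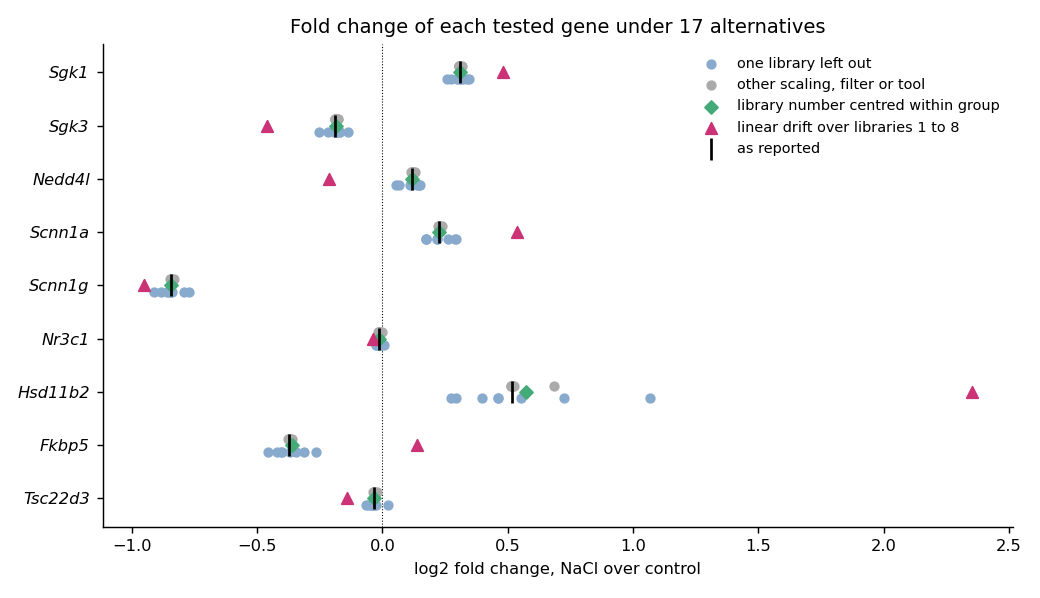
Log2 fold change (NaCl over control) of the 9 tested genes as reported (black bar) and under 17 alternatives. The values of Sgk1 and Scnn1g stay on their side of 0, and the drift term (triangles) turns Nedd4l to -0.21 and Fkbp5 to 0.14.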

How the data were processed

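RNA from 8 libraries (4 control, 4 NaCl) was measured as raw read counts for Ensembl genes, in a table the authors deposited. The submitters' processing notes name Trim Galore 0.6.7, STAR, DESeq2 1.34.0 and the build mm10. The counting step, the annotation and the strandedness are not given in the sources used here. The lowest gene total was 19, so genes with few counts had already been removed. The authors' scaled table was not used here.

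The tests ran in edgeR 4.0.16 under R 4.3.3. Its filterByExpr, given the groups and a minimum count of 10, left 14024 of 15288 genes and removed 0.0191% of counts. Libraries were scaled by TMM, group was the only term of the robust quasi-likelihood fit, and p-values were adjusted over all tested genes (Benjamini-Hochberg, threshold 0.05). CPM were computed on the TMM-scaled totals. Standard errors and 95% intervals come from that fit. Log2 CPM used a prior count of 2. Ratios within libraries were compared by exact two-sided permutation tests. Precision is limited by 4 libraries per group and, for genes under 100 counts, by counting error. Replicate pairs differed by more than counting noise (chi-square per degree of freedom at least 5.24). The value grew with distance in library number. From control replicate 1 it was 6.50, 16.8 and 20.9 to control replicates 2, 3 and 4. From NaCl replicate 5 it was 8.53, 14.9 and 23.0 to NaCl replicates 6, 7 and 8.

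The genes and lists were chosen with earlier results of these data known. Named genes were the 10 genes of the set, 6 paralogs with values (Tsc22d4 was not in the table), up to 3 called genes with the highest and lowest fold change in each list, and genes with the nearest profile. Some genes that this rule names are not reported here. Others were named after their values were seen (Per1, Edn1, Usp2, Ndrg2, Prss8, Hsp90aa1 and the markers). Alternatives were other scalings, filters and tools (DESeq2 1.42.0, limma-voom in limma 3.58.1), the library number as a covariate, and leaving out each library. The gene test was tested on simulated counts. Gene positions, exon lengths and overlaps came from GENCODE M21 on GRCm38, which held 15274 of the identifiers. Shared sequence was measured with blastn 2.17.0, and promoter windows came from RefSeq.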

Additional observations from a re-analysis of the deposited data

Results flagged for a closer look

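In 126 sets of 4 values each, the library farthest from the rest was measured against Dixon's 95% limit. It passed that limit in 5 sets, where chance gives about 6.3. Nr3c1 was at 99.6 CPM in NaCl replicate 5, against 95.7 to 96.1 CPM in the rest of that group. Nedd4 was at 1399 CPM in NaCl replicate 8, against 1351 to 1358 CPM. Ppp5c was at 76.5 CPM in control replicate 1, against 67.2 to 67.9 CPM. Total counts were 47.6 M in control replicate 1, against 41.8 to 42.7 M in the rest of the controls. They were 35.3 M in NaCl replicate 5, against 41.4 to 42.4 M. Sgk1 and Scnn1g stayed called without either of these libraries.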

How the results depend on the processing

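No paired analysis was possible because the control and NaCl groups share no library number. The number of genes called was 4789 and lay between 3382 and 6030 over the alternatives, and with a linear drift over libraries 1 to 8 the calls shared in direction numbered 2191. That term overlaps with the group difference, since all controls have lower numbers. With it 2 of the 10 genes were called higher, Sgk1 and Hsd11b2. With the number centred within groups 2 were called higher as well, but these were Sgk1 and Nedd4l. Nedd4l was called lower under the drift. With library totals 1 gene was called lower, and leaving out single libraries gave from 1 to 3. Under the drift Nedd4l had -0.21, Fkbp5 0.14, Sgk3 -0.46, Hsd11b2 2.35 and Rgs2 -0.12, and the NEDD4, receptor and steroid metabolism lists had 3, 6 and 3 called genes. With the number centred, Sgk3 had -0.19 and Nedd4l 0.12. DESeq2 gave -0.19 for Sgk3, and library totals gave -0.36 for Fkbp5. Leaving out single libraries gave from -0.26 to -0.14 for Sgk3, from -0.46 to -0.26 for Fkbp5, from -0.026 to 0.0045 for Nr3c1, from -0.066 to 0.023 for Tsc22d3 and from -0.11 to 0.026 for Tsc22d1. The cause of these changes was not tested. Sgk1, Scnn1g and Scnn1a kept direction and call status in 17 of 17 alternatives each. Counts were low for Scnn1b, Hsd11b2, Sgk2 and Nr3c2, with at most 57 in any library. Control libraries 1 to 4 also spread widely for Hsd11b2 (35, 57, 14 and 13 counts) and Sgk2 (45, 22, 4 and 25 counts).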
